A study of Canis lupus familiaris with 25 samples.

Results

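The neuroendocrine differentiation genes are a set of 9 genes that pathologists and cell biologists use to recognize cells that store peptides in secretory granules. The set holds the granule proteins CHGA, CHGB, SCG2, SCG3 and SCG5, the synaptic vesicle protein SYP, the neuronal enolase ENO2, the adhesion molecule NCAM1 and the transcription factor INSM1. The rows were picked by gene name, with no threshold on a measured value, although earlier results of these data were known when the set was drawn up. Of the 9 genes, 8 had a row among the 24532 genes of the count table. INSM1 had no row under its symbol or its RefSeq gene number and was not analysed here.

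Neuroendocrine cells keep hormones and amines in dense core granules and release them when calcium enters the cell. Granins such as CHGA and SCG2 pack the granule, prohormone convertases cut the hormones to their active form inside it, and the synaptic release machinery, also used by neurons, fuses it with the membrane. Antibodies against the products of CHGA, SYP, NCAM1 and ENO2 are used in diagnostic pathology to look for this cell state in carcinomas.

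The measurements were QuantSeq 3′ counts, in which each read marks the 3′ end of an mRNA, from archival formalin-fixed, paraffin-embedded tumors of dogs. There were 10 hepatoid gland adenomas (HGA, a benign tumor of the perianal hepatoid glands, dogs of 8 to 14 years), 11 adenocarcinomas of the apocrine glands of the anal sac (AGASAC, malignant, sampled at the primary site, dogs of 8 to 12.5 years) and 4 sublumbal lymph node metastases, each from the dog of AGASAC 1, 2, 3 or 4. Females were 5 of the 10 HGA dogs, 5 of the 11 dogs with primary AGASAC and 2 of the 4 with a sampled metastasis, and the others were male. Of the 10 HGA dogs, 4 were neutered, against 9 of the 11 dogs with primary AGASAC and 3 of the 4 with a sampled metastasis. The part of sex and of neutering in the differences was not tested. No treatment was given in the labels, the dogs were of many breeds, tissue beside the tumor was cut away before sectioning, and no normal gland was sampled. In such bulk RNA, fewer cells of a type and less RNA per cell cannot be told apart.

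Total counts per library ran from 1562347 to 6389555, with medians of 2506085 in HGA, 2950459 in primary AGASAC and 3102626 in metastases. Levels are CPM, counts relative to the library total after trimmed mean of M-values (TMM) scaling over the 25 samples. The most that a count of 0 allows is 3 counts, for counting error only. By the library total before TMM scaling, 3 counts were worth 0.470 to 1.92 CPM depending on the library. The HGA and AGASAC labels matched the epithelium marker genes, on lists chosen with earlier results of these data known, so the match is a description. The summed CPM of 6 AGASAC epithelium markers (KRT8, KRT18, KRT19, KRT7, PIP and PIGR) was 4387 to 10156 in primary AGASAC, 3785 to 9881 in metastases and 1.72 to 148 in HGA. That of 6 HGA epithelium markers (KRT14, KRT5, KRT79, CIDEA, DHRS2 and TGM5) was 4909 to 39386 in HGA and at most 31.9 elsewhere. Lymph node B cell and stroma markers summed to 29.7 to 42.1 CPM in metastases, to 15.1 to 65.8 CPM in primary AGASAC and to 17.2 to 200 CPM in HGA. This list therefore did not set the metastases apart. RNA extraction batches and the naming series of the sequencing files were unevenly spread: batch 4 held only AGASAC 10 and 11, and naming series A held 9 of 10 HGA, 3 of 11 primary AGASAC and 4 of 4 metastases.

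Most of the neuroendocrine genes were sparse in these tumors. Over all 25 samples, CHGB had 6 counts, SCG2 had 18, SYP had 114, SCG3 had 375, NCAM1 had 384 and CHGA had 398, against 1614 for ENO2 and 1952 for SCG5. Only ENO2 and SCG5 passed the low-count filter, in each of the 3 comparisons, so 2 of the 8 genes carried a test within the filtered table and the other 6 are given as counts with an unfiltered test.

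**Figure D1:**
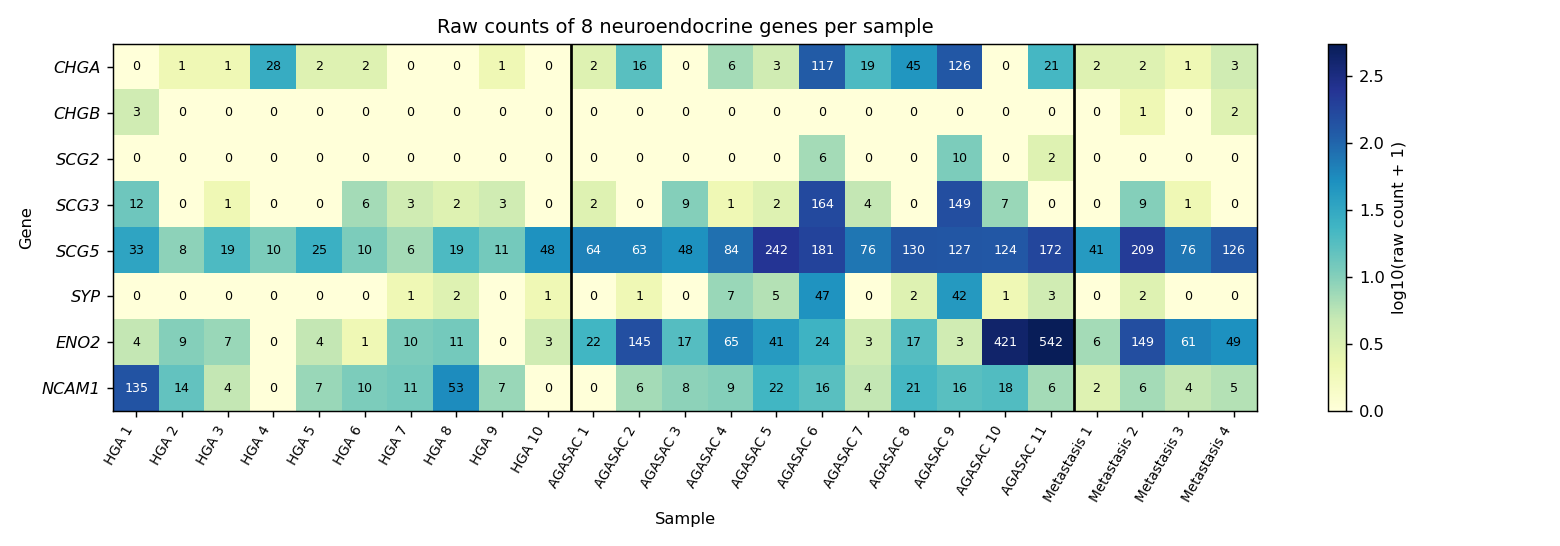
Raw counts of the 8 genes (rows) in the 25 samples (columns), with HGA, primary AGASAC and metastases divided by black lines and color on a log10(count + 1) scale. AGASAC 6 and 9 held the most counts of CHGA, SCG2, SCG3 and SYP, AGASAC 10 and 11 the most of ENO2, and CHGB was at 0 in all 11 primary AGASAC.

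HGA versus primary AGASAC asked whether the benign and the malignant gland tumor differ in these genes. Both genes that could be tested were lower in HGA: ENO2 with a log2FC of −4.08 and SCG5 with a log2FC of −2.28, where a negative log2FC means lower in HGA. Both passed the low-count filter mainly through primary AGASAC, since each HGA had 0 to 11 counts of ENO2 and 6 to 48 of SCG5. The filter thus favored this direction, and that the 2 genes share it is a description. Of all 12070 genes tested, 3032 were called (25.1%), 1509 lower in HGA (12.5%) and 1523 higher in HGA (12.6%), and 2 tested members are too few to set against that background. To be called, a gene needed a log2FC of 1 or more in size and an adjusted p (Benjamini-Yekutieli) of 0.05 or less in edgeR's quasi-likelihood test.

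SCG5 encodes the secretory granule protein 7B2, a chaperone that prohormone convertase 2 (PCSK2) needs to mature. In HGA, the SCG5 level ran from 1.82 CPM in HGA 7 through a median of 6.06 to 20.6 CPM in HGA 10, on 6 to 48 counts. In primary AGASAC, it ran from 14.2 CPM in AGASAC 3 through a median of 36.4 to 84.0 CPM in AGASAC 5, on 48 to 242 counts. The groups overlapped slightly, with AGASAC 1, 2 and 3 at or below the level of HGA 10 and the other 8 AGASAC above every HGA. Mean levels were 7.70 ± 5.86 CPM (SD, n = 10) in HGA and 37.5 ± 20.8 CPM (SD, n = 11) in primary AGASAC. The difference in SCG5 had a standard error of 0.40 and an adjusted p of 0.00062 (edgeR quasi-likelihood test, Benjamini-Yekutieli), and with any 1 of the 21 tumors left out the log2FC stayed between −2.59 and −2.09 and called.

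The SCG5 difference was smaller beside the naming series of the sequencing files. With the series as a term, and AGASAC 4 left out since its series was not given, the log2FC of SCG5 was −1.42 (edgeR adjusted p = 0.056), and within series A, which held 3 primary AGASAC, it was −1.52 (edgeR adjusted p = 0.391). Those 3 tumors, AGASAC 1, 2 and 3, had the lowest SCG5 levels of the 11. The other series, B, held 1 HGA, HGA 10. Among the HGA, it had the highest SCG5 level (20.6 CPM) and the lowest sum of HGA epithelium markers (4909 CPM). With the RNA extraction batch as a term, the log2FC of SCG5 was −2.70 (edgeR adjusted p = 0.000513), and within batches 5, 6 and 8 it was −2.04, −2.47 and −4.36, none of them called. The part of the naming series in the SCG5 difference was not tested.

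ENO2 encodes gamma enolase, the form of the glycolytic enzyme found in neurons and neuroendocrine cells. In HGA, ENO2 had 0 to 11 counts per tumor, with a median level of 1.72 CPM and a highest level of 4.52 CPM in HGA 8. In primary AGASAC, the ENO2 level ran from 0.860 CPM in AGASAC 9 through a median of 8.27 to 137 CPM in AGASAC 10. Next came AGASAC 11 with 132 CPM and AGASAC 2 with 47.4 CPM, and the groups overlapped, since AGASAC 7 and 9 lay within the HGA range while 9 of the 11 AGASAC lay above it.

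Mean ENO2 levels were 2.00 ± 1.80 CPM (SD, n = 10) in HGA and 34.2 ± 51.3 CPM (SD, n = 11) in primary AGASAC, and the log2FC of −4.08 had a standard error of 0.88 and an adjusted p of 0.00535 (edgeR quasi-likelihood test, Benjamini-Yekutieli). AGASAC 10 and 11 held 963 of the 1300 ENO2 counts of primary AGASAC (74.1%). Without these 2 tumors ENO2 fell outside the low-count filter, and its unfiltered log2FC was −2.60 (edgeR adjusted p = 0.0903). With the RNA extraction batch as a term the log2FC of ENO2 was −2.10 (edgeR adjusted p = 0.244), and since batch 4 held no HGA, the batch and those 2 tumors cannot be told apart. With the naming series as a term, again without AGASAC 4, the unfiltered log2FC was −3.61 (edgeR adjusted p = 0.14). Leaving out any of AGASAC 1, 2, 3, 4, 10 or 11 alone also put ENO2 outside the filter, while the unfiltered log2FC stayed between −4.35 and −3.61 and called in all 21 fits.

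The other enolases are given beside ENO2 as paralogs of the same enzyme. ENO1, the alpha enolase of most tissues, averaged 137 ± 52.8 CPM (SD, n = 10) in HGA and 89.5 ± 17.5 CPM (SD, n = 11) in primary AGASAC, with a log2FC of 0.65 that was not called (edgeR adjusted p = 0.0665). ENO3, the enolase of muscle, had at most 7 counts in any HGA and 9 to 52 counts in primary AGASAC, and did not pass the filter. Skeletal muscle markers moved the same way, with a summed level of 10.7 to 1180 CPM in primary AGASAC and 3.39 to 33.3 CPM in HGA, and all 3 of those 12 markers that were tested were lower in HGA. In AGASAC 11, which had 132 CPM of ENO2, the muscle markers summed to 10.7 CPM, the lowest of the primary AGASAC, and in AGASAC 10 they summed to 109 CPM. The part of muscle in the levels of ENO2 and ENO3 was not tested.

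**Figure D2:**
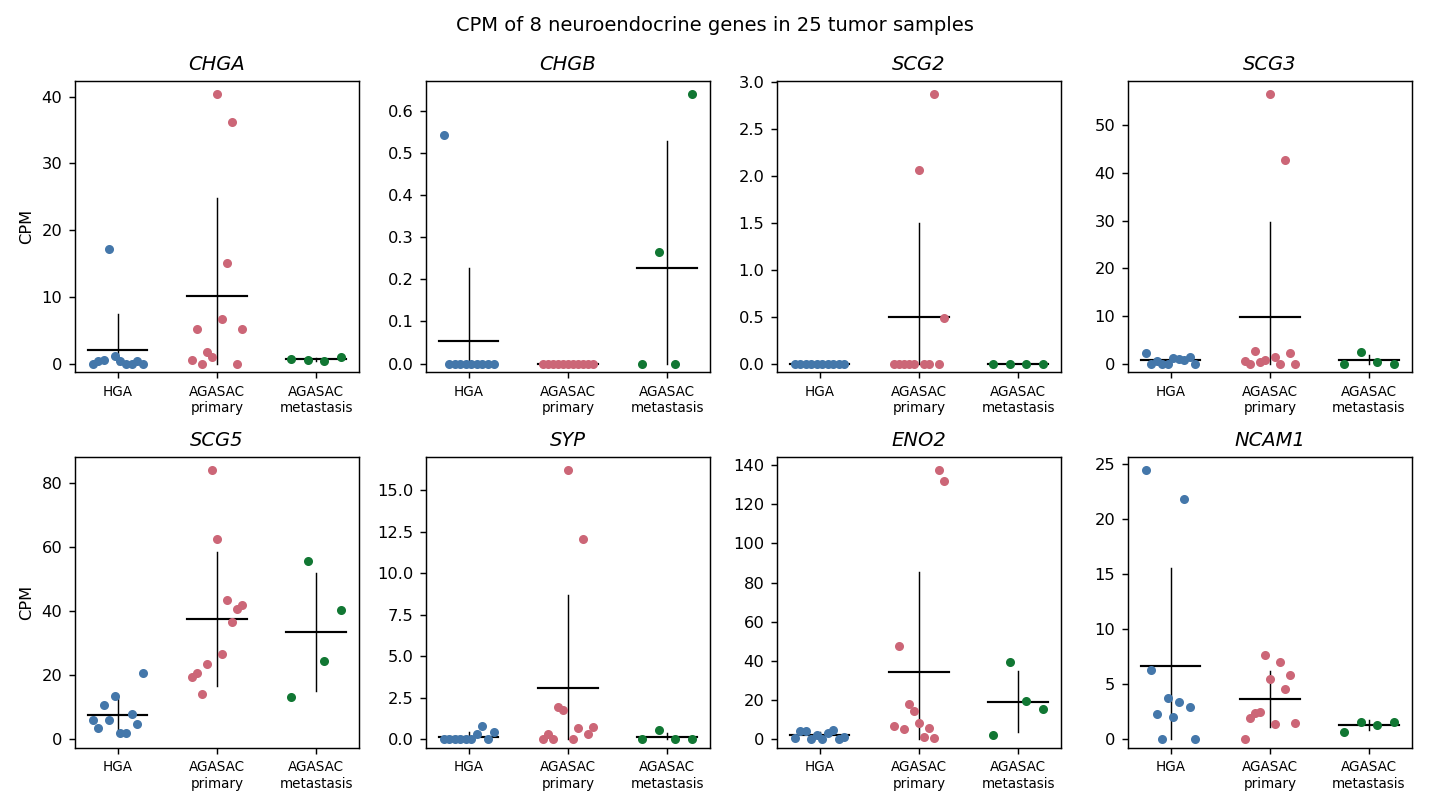
CPM of each gene (1 panel per gene, each with its own linear axis) in HGA, primary AGASAC and metastases, with a point per sample, the mean as a horizontal line and the SD as a vertical line cut at 0. SCG5 was higher in 8 of 11 primary AGASAC than in every HGA, whereas CHGA, SCG2, SCG3, SYP and ENO2 each had 2 primary tumors far above the rest.

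CHGA, SCG2, SCG3 and SYP followed another pattern, in which a pair of AGASAC stood apart, and CHGB did not. CHGA encodes chromogranin A, the granin most used as a marker in pathology. CHGA had 117 counts in AGASAC 6 (40.3 CPM) and 126 counts in AGASAC 9 (36.1 CPM), 45 counts in AGASAC 8 (15.1 CPM), and 0 to 21 counts in the other 8 primary AGASAC. In HGA, CHGA had 28 counts in HGA 4 (17.2 CPM) and at most 2 counts in the other 9. AGASAC 6 and 9 therefore held 68.5% of the 355 CHGA counts of primary AGASAC, and the groups overlapped. In the unfiltered edgeR fit, in which 3951 of 24332 genes were called (16.2%), CHGA had a log2FC of −2.50 with a standard error of 1.07 and an adjusted p of 0.734. Without HGA 4 the log2FC of CHGA was −4.97 and was called (edgeR adjusted p = 0.00924), and without AGASAC 6 and 9 it was −1.06 (edgeR adjusted p = 1).

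SCG3 encodes secretogranin III, which binds chromogranin A to the granule membrane. SCG3 had 164 counts in AGASAC 6 (56.5 CPM) and 149 in AGASAC 9 (42.7 CPM), and 0 to 9 counts in the other 9 primary AGASAC. In HGA, SCG3 had 0 to 12 counts, with a highest level of 2.17 CPM in HGA 1. The unfiltered log2FC of SCG3 was −3.63 with a standard error of 1.11 (edgeR adjusted p = 0.143), and without AGASAC 6 and 9 it was −0.27 (edgeR adjusted p = 1). The other 9 AGASAC and the 10 HGA thus lay in the same range of SCG3 counts.

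SYP encodes synaptophysin, a membrane protein of synaptic vesicles and of the small clear vesicles of neuroendocrine cells. SYP had 47 counts in AGASAC 6 (16.2 CPM) and 42 in AGASAC 9 (12.0 CPM), 7 counts in AGASAC 4, 5 counts in AGASAC 5, and at most 3 in the other 7 primary AGASAC. In HGA, SYP had 4 counts in all, with 2 in HGA 8 and 1 each in HGA 7 and 10. Summed over tumors, SYP was 21.9 times higher in primary AGASAC per scaled read (exact 95% interval 8.29 to 81.7, for counting error only and not for the spread between tumors). Every HGA lay under the floor of 3 counts, and 82.4% of the 108 AGASAC counts of SYP came from AGASAC 6 and 9. In the unfiltered fit, which takes in the spread between tumors, the log2FC of SYP was −4.04 with a standard error of 1.14. The unfiltered test did not call SYP (edgeR adjusted p = 0.0797), whereas DESeq2's Wald test did (adjusted p = 0.0251), and without HGA 8 edgeR called it too (adjusted p = 0.0494). Without AGASAC 6 and 9, SYP had an edgeR adjusted p of 1.

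SCG2 and CHGB, the precursors of secretoneurin and of chromogranin B peptides, were at the limit of detection. SCG2 had 10 counts in AGASAC 9, 6 in AGASAC 6, 2 in AGASAC 11 and 0 in the other 22 samples. CHGB had 3 counts in HGA 1, 2 in metastasis 4, 1 in metastasis 2 and 0 in the other 22 samples, all 11 primary AGASAC included. No fold is given for either gene, since SCG2 had 18 and CHGB 6 counts over all 25 samples, with most or all libraries of a group under the floor of 3 counts. A difference in CHGB was not detectable at this depth.

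NCAM1 encodes CD56, an adhesion molecule of neurons, neuroendocrine cells, natural killer cells and regenerating muscle. NCAM1 was the member with its highest values in HGA, with 135 counts in HGA 1 (24.4 CPM) and 53 in HGA 8 (21.8 CPM). The other 8 HGA had 0 to 14 counts of NCAM1, and primary AGASAC had 0 to 22 counts, with a median of 2.50 and a highest level of 7.64 CPM in AGASAC 5. The groups overlapped and the unfiltered log2FC of NCAM1 was 0.85 with a standard error of 0.70 (edgeR adjusted p = 1). HGA 1 had the highest summed nerve sheath markers of the HGA (239 CPM, against 27.1 CPM in the lowest), and HGA 8 had the highest summed T and NK cell markers (41.1 CPM, against 2.45 CPM in the lowest) and muscle markers (33.3 CPM). Some primary AGASAC had higher sums beside less NCAM1. Nerve sheath markers summed to 611 CPM in AGASAC 8, where NCAM1 was 7.04 CPM. T and NK cell markers summed to 112 CPM in AGASAC 7 (NCAM1 1.40 CPM), and muscle markers to 1180 CPM in AGASAC 5 (NCAM1 7.64 CPM). The part of nerve sheath, T, NK and muscle cells in the NCAM1 level was not tested.

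AGASAC 6 and 9 were the 2 highest of the 25 samples in CHGA, SYP, SCG2 and SCG3, which is 4 of the 8 genes measured. Among all 19035 genes with at least 18 counts in total, 224 (1.18%) had this same pair on top. The pair was singled out after its values were seen, so this share is a description. NCAM1 and SCG5 were not highest there, and ENO2 was low in both, at 8.27 CPM in AGASAC 6 and 0.860 CPM in AGASAC 9. Across the 11 primary AGASAC, each a single library of its own dog, the levels of CHGA and SCG3 had a Pearson r of 0.94 and a Spearman rho of 0.09, and SYP and SCG3 had an r of 0.99 and a rho of 0.18. The ranks ran closer for CHGA with SYP (rho = 0.59), CHGA with SCG2 (rho = 0.62) and SYP with SCG2 (rho = 0.68), where r was 0.94, 0.92 and 0.92, and for SCG2 with SCG3 the r was 0.93 and the rho 0.41. ENO2 and CHGA an r of −0.32 and a rho of −0.37.

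The pair came from different RNA extraction batches (6 and 5) and from the same naming series. Their AGASAC epithelium markers summed to 4387 CPM in AGASAC 6, the lowest of the primary tumors, and to 9508 CPM in AGASAC 9. Their T and NK cell markers summed to 93.4 and 68.5 CPM, above all other primary AGASAC but AGASAC 7 (112 CPM) and against a median of 23.2 CPM. Their lymph node B cell and stroma markers summed to 65.8 CPM in AGASAC 6, the highest of the primary AGASAC, and to 41.0 CPM in AGASAC 9, against a median of 26.1 CPM. The part of these immune cells in the levels of the pair was not tested. Their nerve sheath markers summed to 237 and 414 CPM, within a range of 68.7 to 611 CPM. No metastasis of either dog was sampled.

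Genes that act with the members were read from 9 lists, which hold 98 genes, of which 83 had a row in the table and 30 passed the filter for HGA versus primary AGASAC. Of these 30 genes, 13 were lower in HGA, 1 was higher and 16 were not called. Over all 12070 genes tested, 12.5% were called lower in HGA and 12.6% higher. The low-count filter bears on this split. SYT1 and SSTR1 passed it through AGASAC, with 3 and 7 counts in all HGA together. INA and FOXA2, with 398 and 300 counts in HGA and few or none in primary AGASAC, did not pass. The lists were chosen with earlier results of these data known, so their counts and medians, here and below, are a description. Among 12 genes of granule cargo and prohormone processing, 6 were tested, 2 were lower in HGA and none was higher, with a median log2FC of −1.23 beside a median of −0.03 over all genes tested. PCSK1, the convertase that cuts many prohormones, had 1646 CPM in AGASAC 6 and 631 CPM in AGASAC 9, and 0 to 46.2 CPM in the other 9 primary AGASAC. PCSK1 reached 25.2 CPM in HGA 4, the HGA with the highest CHGA. Its log2FC of −5.35 was called (edgeR adjusted p = 0.0355), but without AGASAC 6 and 9 it was −1.10, and within naming series A it was 2.36, with neither called. PCSK1 also lost its call without AGASAC 6 alone (log2FC −3.81), without AGASAC 9 alone, and without any HGA but HGA 4, 11 of 21 fits in all. PCSK1N, an inhibitor of PCSK1 that is named after its values were seen, was lower in HGA with a log2FC of −3.24 (edgeR adjusted p = 0.00563) and was highest in AGASAC 5 at 89.2 CPM.

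Further genes had AGASAC 6 and 9 as their top pair and are named here after their values were seen. PCSK2, the convertase that SCG5 chaperones, had 226 and 76.3 CPM in AGASAC 6 and 9 and at most 31.6 CPM in the other 23 samples, and was not called (log2FC −1.67, edgeR adjusted p = 1). PTPRN2, a granule membrane phosphatase, had 12.1 and 61.7 CPM there and at most 2.24 CPM elsewhere. CPLX2, a complexin that clamps vesicle fusion, had 435 and 572 CPM there, and reached 105 CPM in metastasis 3, 96.5 CPM in AGASAC 8 and 2.46 CPM in the highest HGA. SYN1 and the T cell gene CD5 had the same pair on top, and SNAP25, a fusion protein, was found in primary AGASAC only in these tumors, with 37 and 187 counts, but also had 31 counts in HGA 5.

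**Figure D3:**
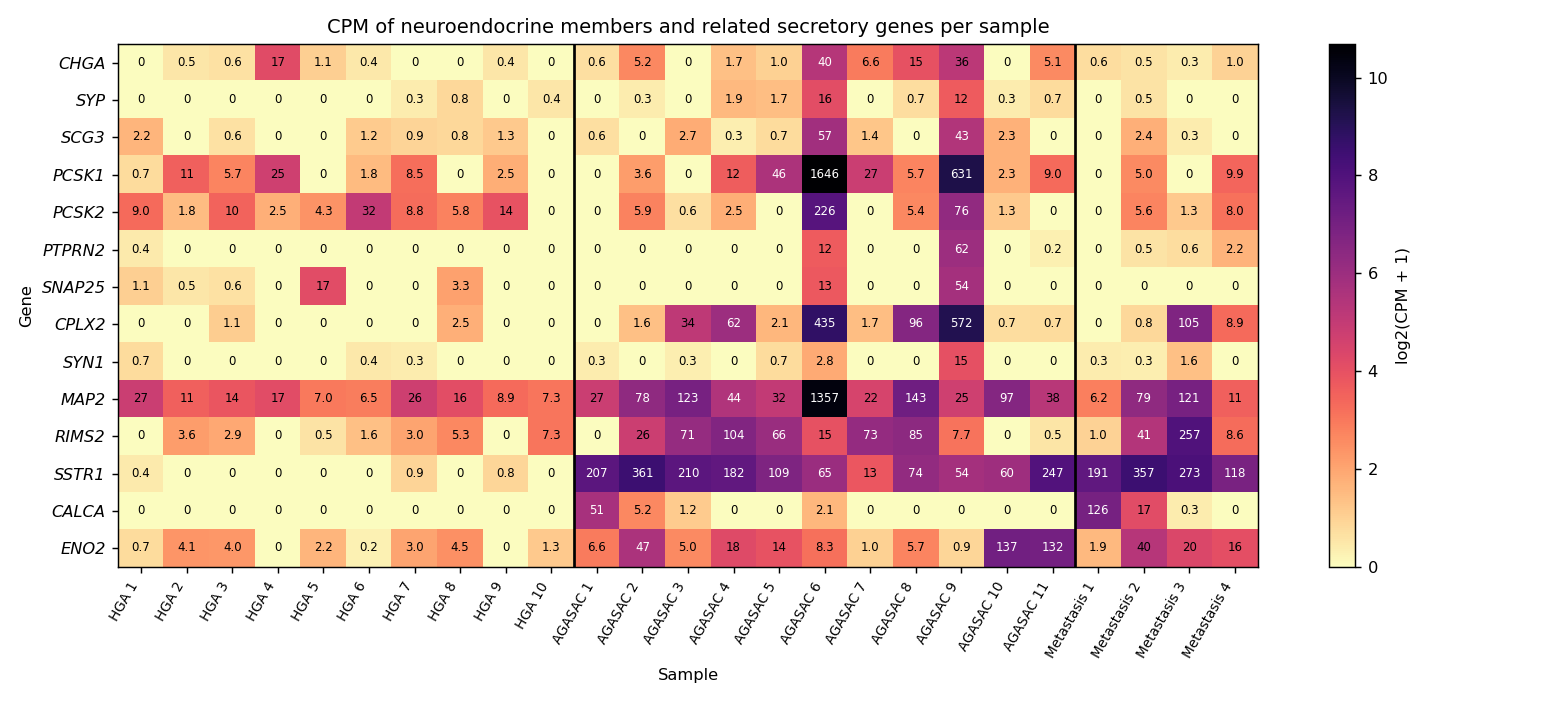
CPM of members and of related secretory and neuronal genes (rows) in the 25 samples (columns), with color on a log2(CPM + 1) scale and the groups divided by black lines. AGASAC 6 and 9 were high from CHGA down to SYN1, SSTR1 was at least 13.3 CPM in every AGASAC sample and at most 0.911 CPM in HGA, and ENO2 was highest in AGASAC 10 and 11.

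Among 20 genes of the synaptic vesicle and exocytosis machinery, 11 were tested, 6 were lower in HGA and none was higher, with a median log2FC of −1.62. SYT1, the calcium sensor of vesicle fusion, showed the largest fall, with 3 counts in all HGA together and 10 to 129 counts in each primary AGASAC. Summed over tumors, SYT1 was 130 times higher in primary AGASAC per scaled read (exact 95% interval 44.3 to 634, for counting error only; edgeR adjusted p = 2.4e-07). The groups of SYT1 did not overlap, and the level in AGASAC 6 (17.2 CPM) and AGASAC 9 (4.59 CPM) lay within the range of the other primary AGASAC (3.35 to 38.9 CPM). SYT1 passed the low-count filter in only 14 of the 21 fits that left out a tumor. In those it stayed called, with a log2FC from −6.88 to −6.30.

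Of the 5 somatostatin receptor genes, 2 had a row and SSTR1 was tested. SSTR1, a receptor through which somatostatin inhibits secretion, had 0 to 3 counts in each HGA, 38 to 1105 counts in each primary AGASAC and 368 to 1347 counts in each metastasis. Its groups did not overlap, and summed over tumors SSTR1 was 614 times higher in primary AGASAC than in HGA per scaled read (exact 95% interval 298 to 1527, for counting error only; edgeR adjusted p = 3.08e-09). SSTR1 in AGASAC 6 and 9 was 65.1 and 54.5 CPM, below the median of 109 CPM in primary AGASAC.

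Of 13 neuroendocrine transcription factor genes, 11 had a row and only PROX1 passed the filter. PROX1, which also marks lymphatic endothelium, averaged 4.01 ± 2.88 CPM (SD, n = 10) in HGA and 18.6 ± 20.2 CPM (SD, n = 11) in primary AGASAC, with a log2FC of −2.18 (edgeR adjusted p = 0.0364). PROX1 lost its call in 9 of the 21 fits that left out a tumor (AGASAC 4, 5, 8 or 11, or HGA 1, 2, 5, 6 or 7), with a log2FC from −2.36 to −1.68, and it was 8.27 and 4.30 CPM in AGASAC 6 and 9. FOXA2, a factor of endoderm and its endocrine cells, did not pass the filter and is named after its values were seen. FOXA2 had 300 counts in HGA, from 0 in HGA 6 and 9 to 128 in HGA 10, and 0 in all 11 primary AGASAC, the opposite direction to PROX1. Of 6 repressors of neuronal genes, 4 were tested and none was called, and REST, which holds CHGA, SYP and other neuronal genes silent outside the nervous system, had a log2FC of 0.01 with 65.3 ± 29.1 CPM in HGA (SD, n = 10) and 66.1 ± 17.3 CPM in primary AGASAC (SD, n = 11; edgeR adjusted p = 1).

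Among 14 neuronal cytoskeleton and other neuronal genes, 13 had a row and 2 were tested. MAP2, a microtubule protein of dendrites, was lower in HGA with a log2FC of −3.66 (edgeR adjusted p = 0.00242), or −2.12 without AGASAC 6 (edgeR adjusted p = 0.000959), and had 1357 CPM in AGASAC 6 against 21.7 to 143 CPM in the other primary AGASAC and 6.53 to 27.3 CPM in HGA. KIF5C, a kinesin motor of neurons, moved the other way with a log2FC of 2.75 (edgeR adjusted p = 0.00896), at 239 ± 159 CPM in HGA (SD, n = 10) and 36.1 ± 27.6 CPM in primary AGASAC (SD, n = 11). The groups of KIF5C overlapped, with 1.72 to 438 CPM in HGA and 4.89 to 83.6 CPM in primary AGASAC. INA, a neuronal intermediate filament gene that did not pass the filter and is named after its values were seen, also had its counts in HGA, with 5 to 101 in each HGA, at most 1 in each primary AGASAC and 0 in all 4 metastases. Of 7 genes related to NCAM1 in adhesion, 4 were tested and 2 were lower in HGA. FGFR1, a receptor that NCAM1 can bind, was lower in HGA, at 20.3 to 90.8 CPM against 178 to 598 CPM in primary AGASAC, without overlap (log2FC −2.64, edgeR adjusted p = 1.14e-07). With the naming series as a term, SSTR1 and FGFR1 were still called, whereas PROX1, MAP2 and KIF5C were not, with log2FC of −1.28, −2.84 and 1.96. In that fit HGA 10 was the only HGA of series B.

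**Figure D4:**
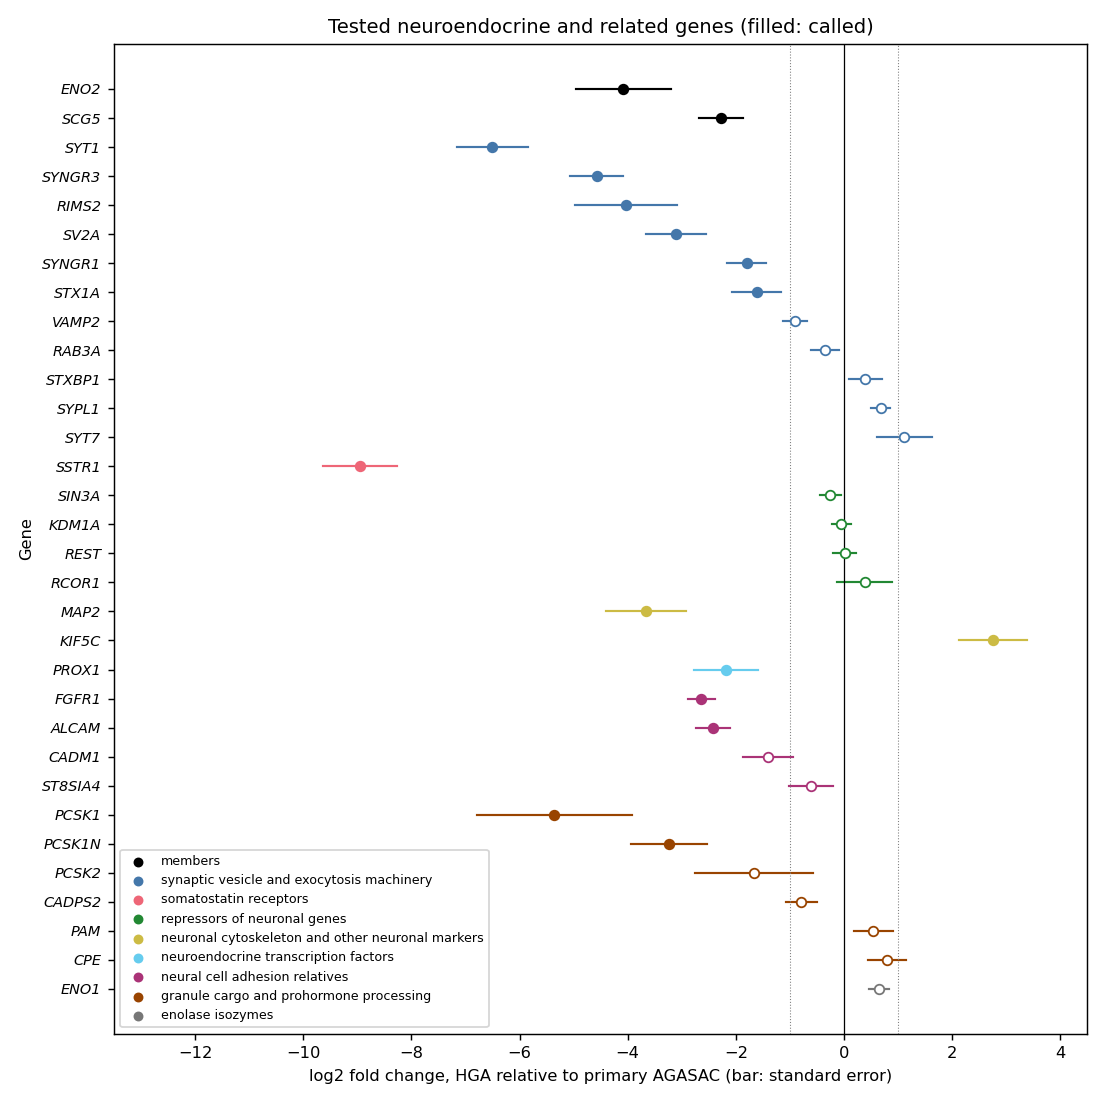
Log2FC of HGA relative to primary AGASAC, with its standard error as a bar, for the 2 members and the 30 listed genes that were tested, colored by list and filled where called (dotted lines at −1 and 1). Both members and 13 of the listed genes were called lower in HGA, and KIF5C alone was called higher.

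Of 18 genes for peptide hormones and amine synthesis, 13 had a row and none passed the filter for HGA versus primary AGASAC. CALCA and VIP are named here after their values were seen. CALCA, which encodes calcitonin and calcitonin gene-related peptide, had 169 counts in AGASAC 1 and 388 counts in the metastasis of the same dog, 16 and 64 counts in the primary tumor and metastasis of dog 2, 0 to 6 counts in the other primary AGASAC, and 0 in all 10 HGA. VIP, a peptide hormone gene, had 840 counts in metastasis 4 but 5 counts in the primary tumor of that dog, 20 counts in AGASAC 1 and 0 in every HGA. Neither gene was high in AGASAC 6 or 9, where CALCA had 6 and 0 counts and VIP had 0 in both.

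The comparison of the 4 metastases with AGASAC 1 to 4, from the same animals, asked whether the genes change with spread to the lymph node. No gene was called among 12629 tested (0%), 145 genes had an unadjusted p under 0.05, and DESeq2 called 5 genes. The log2FC, here of metastases relative to primary tumors, was 0.01 for ENO2 with a standard error of 0.88 and 0.79 for SCG5 with a standard error of 0.42 (edgeR adjusted p = 1 for both). These errors are of the fit without the dog as a block. Since no gene was called, changes well above the size of these errors could also have gone undetected. ENO2 was 6.63 CPM in the primary tumor and 1.95 CPM in the metastasis of dog 1, 47.4 and 39.5 CPM in dog 2, 5.04 and 19.6 CPM in dog 3, and 18.1 and 15.7 CPM in dog 4. The level was thus lower in the metastasis of 3 dogs and higher in that of dog 3. SCG5 was 19.3 and 13.3 CPM in dog 1, 20.6 and 55.4 CPM in dog 2, 14.2 and 24.4 CPM in dog 3, and 23.3 and 40.3 CPM in dog 4, so it was higher in the metastasis of 3 of the 4 dogs. With the dog as a block the log2FC was 0.02 for ENO2 and 0.64 for SCG5.

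The other members were near the floor in metastases. CHGA had 1 to 3 counts per metastasis, SYP had 2 counts in metastasis 2 and 0 in the other 3, SCG2 had 0 in all 4, and SCG3 had 9 counts in metastasis 2 and at most 1 in the others. NCAM1 had 2 to 6 counts per metastasis. CHGA was 5.23 CPM in the primary tumor of dog 2 and 0.531 CPM in its metastasis, and the primary tumors of the other 3 dogs had 0 to 6 counts. The tumors with most CHGA, SYP and SCG3, AGASAC 6 and 9, are not among these 4 dogs.

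**Figure D5:**
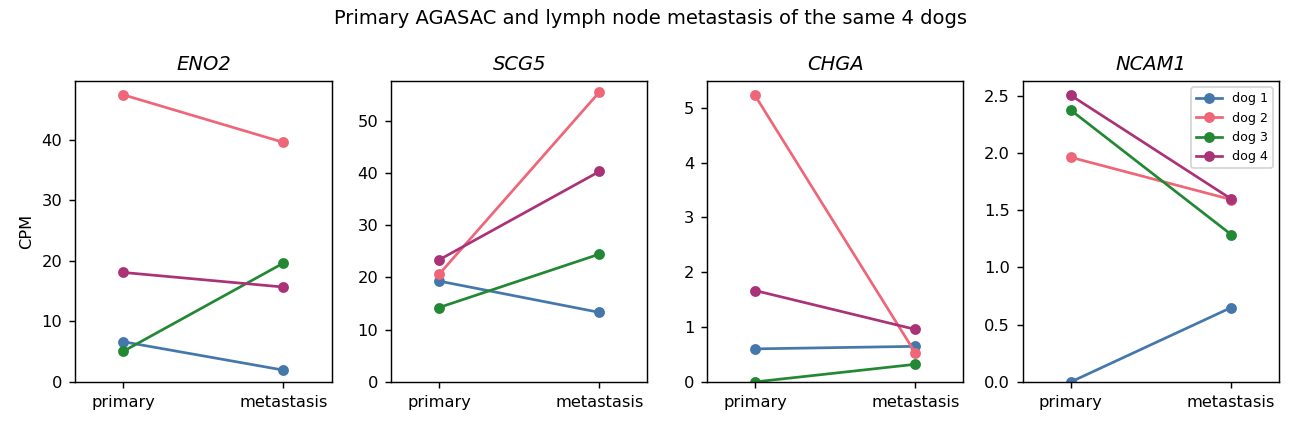
CPM of ENO2, SCG5, CHGA and NCAM1 in the primary AGASAC and the lymph node metastasis of the same dog (lines join samples of a dog, each panel with its own linear axis from 0). SCG5 rose along 3 of the 4 lines and ENO2 along 1, and CHGA and NCAM1 stayed under 6 CPM in all 8 samples.

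Metastases versus HGA used the same 10 HGA as the comparison above, so the results share those samples. Of 13195 genes tested, 2124 were called (16.1%), and of the members ENO2 was called and SCG5 was not. ENO2 averaged 19.2 ± 15.5 CPM in metastases (SD, n = 4), and its log2FC, of HGA relative to metastases, was −3.25 with a standard error of 0.79 (edgeR adjusted p = 0.0482). The ENO2 level of metastasis 1, 1.95 CPM, lay within the HGA range and those of the other 3 metastases lay above it. SCG5 averaged 33.4 ± 18.4 CPM in metastases (SD, n = 4), with a log2FC of −2.10 and a standard error of 0.53 (edgeR adjusted p = 0.0601), and metastasis 1 at 13.3 CPM lay under HGA 10. Both values lay close to the threshold. ENO2 kept its call only without metastasis 1 or without HGA 8, and lost it in the other 12 fits that left out a sample, with a log2FC from −3.63 to −2.62. SCG5 was called without metastasis 1 or without HGA 10. All 4 metastases and 9 of the 10 HGA were of naming series A.

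The genes whose levels ran most like those of the 2 tested members were found by Spearman's rho of CPM over the 25 samples, as a description, since the points share libraries and tumor types. For SCG5 these were FHDC1 (rho = 0.90), a formin that binds microtubules, and the unnamed locus LOC106558194 (rho = 0.89). For ENO2 they were PFN2 (rho = 0.83), a profilin that binds actin, and CRYM (rho = 0.81), which binds thyroid hormone. Over the 11 primary AGASAC alone the rho was 0.78 and 0.85 for the SCG5 pairs and 0.51 and 0.60 for the ENO2 pairs.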

How the data were processed

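RNA of 25 samples was sequenced with QuantSeq 3′. The authors trimmed the reads with cutadapt, aligned them to CanFam3.1 with STAR and counted them on genes with featureCounts, again with annotation extended by 2 kilobases at the 3′ end for reads left unassigned, with multi-mapped reads split over their locations. The deposited raw counts per gene were used, and 0 per-sample columns were unused for want of a sample. The authors' own normalized columns, fold changes and p-values in the table were not used. Versions were not given in the sources used here.

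Tests were run with edgeR 4.0.16 under R 4.3.3 (filterByExpr with a minimum count of 10 and a minimum total count of 15, TMM scaling, quasi-likelihood test, Benjamini-Yekutieli adjustment over all genes tested), with DESeq2 1.42.0 as an alternative. The fits held only the samples compared, with no covariate, and were tested on simulated data. A call needed a log2FC of 1 or more in size beside an adjusted p of 0.05 or less. The log2FC was not shrunken, and its standard error is its size over the root of the F statistic. Summed count ratios used TMM-scaled library sizes and an exact binomial interval. The members and lists were chosen with earlier results of these data known. Named genes were all members, the called gene with the largest rise and fall of each list, the enolases, REST, and the 2 genes most alike to each tested member. Others are said to be named after their values were seen.

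Depth was 1562347 to 6389555 counts per library and DV200, the percentage of RNA fragments over 200 nt, was 70.2 to 92.7. Metastases and primary tumors of a dog deviated together from their group means (correlation across genes 0.424 to 0.710, 4 of 4 dogs), by the labels the same animals. No libraries were duplicates by their counts. Each primary tumor came from its own dog. RefSeq names are of the assembly UU_Cfam_GSD_1.0, not that of the counts, so no coordinates or sequences are given. Alternatives are given in the closing section.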

Additional observations from a re-analysis of the deposited data

Results flagged for a closer look

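In groups of 4 to 10 samples, 14 sets of member values were examined for a sample far from the others by Dixon's gap test, and 5 held such a sample. The rate of about 1 in 20 that chance gives holds for continuous values and not for sets that are mostly at 0 counts, where any single sample with a count passes, so the 5 are not set against it. The 11 primary AGASAC were not tested in this way. CHGA in HGA 4 was 17.2 CPM on 28 counts, with the next HGA at 1.08 CPM. SCG3 in metastasis 2 was 2.39 CPM on 9 counts, with the next metastasis at 0.322 CPM. The other 3 rest on 2 or 3 counts each: CHGB in HGA 1 at 0.543 CPM, SYP in HGA 8 at 0.822 CPM and SYP in metastasis 2 at 0.531 CPM.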

How the results depend on the processing

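For HGA versus primary AGASAC, 2 members were called. The count was 1 with the replicate block, with the RNA extraction batch as a term and without AGASAC 10 and 11, and 0 with the naming series as a term and within extraction batch 5, 6 or 8 or naming series A. Leaving out 1 tumor at a time gave 1 to 2. For metastases versus HGA, 1 member was called, with 2 under library size alone, DESeq2 or Benjamini-Hochberg adjustment, 0 without a filter, and 0 to 2 with 1 sample left out. For metastases versus primary AGASAC, 0 members were called under every alternative run, the replicate block of dogs included, and the block changed no other call. A minimum of 10 counts in every sample left no member to test in either comparison with HGA.

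HGA and AGASAC with the same number are different dogs (correlation of deviations −0.055 to 0.041, 0 of 10 HGA closest to their own number), so that block pairs by number only. Direction turned in these cases, and the cause was not tested. PCSK1 was 2.36 within naming series A and 0.96 with the series as a term, and CHGA was 0.14 and SYP 0.20 within series A without a filter. For metastases against all 11 primary AGASAC, ENO2 was −0.81 and SCG5 −0.16, and ENO2 ran from −0.64 to 0.97 with 1 sample left out. Of the alternatives planned for HGA versus primary AGASAC, scaling, the other adjustment and DV200 as a term left both members called. Depth limits CHGB and SCG2 throughout. Fits added after seeing the data were the fits without AGASAC 6 and 9, without AGASAC 10 and 11, and without a filter together with batch.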
